A study of Mus musculus with 9 samples.

Results

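The transcripts described here are those of the mouse mitochondrial genome in RNA sequenced from retina. They were taken as every row of the deposited expression table whose mouse symbol begins with mt-, which gave 16 of 35397 genes. The 16 were 13 messages for proteins, both ribosomal RNAs and 1 of the 22 transfer RNAs that the GENCODE M21 annotation lists; the other 21 transfer RNAs are not analysed here. Retinas came from 5 wild-type samples (wild type 1 to 5) and 4 samples of db/db (db/db 1, 3, 4 and 5), a strain homozygous for a leptin receptor mutation that becomes obese and diabetic. Age, sex, background strain and pooling are not in the labels. Nor do they state that every library is a different mouse, and p-values here reflect variation among libraries that may be technical. Columns named Control and DR were matched to wild type and db/db by their numbers, which is an inference from the names.

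The mitochondrial genome is a small circle that carries the genes for a few core subunits of the respiratory chain, together with the ribosomal and transfer RNAs needed to translate them. Both strands are transcribed into long precursors, most genes lying on 1 template, and transfer RNAs that sit between the messages are cut out to release them. Most of the messages are polyadenylated, and they are made without nuclear capping or splicing. In the retina mitochondria are crowded into the photoreceptor inner segments, and oxidative phosphorylation meets much of the cost of the dark current and of synaptic transmission. All other subunits of the chain, and the whole machinery for transcribing and translating this genome, are encoded in the nucleus.

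Values were FPKM, a length-scaled and depth-scaled abundance, so levels of different genes are set side by side on that scale. The order of members below is one of FPKM and need not be that of RNA molecules. Members ran from 67 to 1824 bases, and genes carried on 1 message could differ widely. For example, mt-Atp8 and mt-Atp6 had wild-type means of 162 and 899 FPKM. The steps of the values gave a depth of 36.6 to 47.8 M reads per library. All 16 members passed the filter of a mean of at least 1 FPKM, which 14588 genes passed. The depth behind a member ran from 559 reads (mt-Atp8 in its lowest library) to 638621 reads (mt-Co1 in its highest). The library db/db 1 stands apart from the rest in the genome-wide comparison, where leaving it out raised the number of genes past the threshold from 73 to 1540. The members' changes below are therefore given with and without it. That reason is the count of calls itself and not a separate measure of library quality. Adjusted p-values without db/db 1 thus belong to a fit singled out by its outcome and are given as description.

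Several features of the mitochondrial sequence bear on how these rows can be read, and the stretches concerned are shown here, from the GENCODE M21 transcripts on GRCm38. The only transfer RNA in the table was mt-Tp, the proline transfer RNA (chromosome M, 15356 to 15422, minus strand), shown with its anticodon in capitals.
mt-Tp: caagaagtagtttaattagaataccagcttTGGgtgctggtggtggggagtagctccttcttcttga
A pair of messages each carry 2 reading frames. The frames of mt-Atp8 and mt-Atp6 share 43 bases, and those of mt-Nd4l and mt-Nd4 share 7, so that a read over the shared bases (capitals) belongs to both genes.
mt-Atp8 to mt-Atp6, chrM:7917-7979: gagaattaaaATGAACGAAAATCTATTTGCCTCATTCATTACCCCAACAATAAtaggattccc
mt-Nd4l to mt-Nd4, chrM:10147-10193: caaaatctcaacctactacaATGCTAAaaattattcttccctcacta
The annotated sequences of mt-Co3, mt-Nd4 and mt-Cytb end on a single base of an unfinished stop codon (capital), which polyadenylation is known to complete in mitochondria.
mt-Co3 end: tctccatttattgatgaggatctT
mt-Nd4 end: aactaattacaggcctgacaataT
mt-Cytb end: acaaaatactaaaattatatccaT

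The nuclear genome also holds copies of this sequence. Among annotated pseudogenes in the table, 11 aligned to the mitochondrial genes at 95% identity or more over at least 80% of their length. A run of 7 of them lies on the minus strand of chromosome 1 between 24611535 and 24616197, in the order of mt-Co1 to mt-Nd4. Gm28661 (copy of mt-Co2), Gm10925 (mt-Atp6), Gm28437 (mt-Co3), Gm10222 (mt-Nd4l) and Gm28439 (the first 876 bases of mt-Nd4) had 0 differences from the mitochondrial sequence over their whole length. Gm28438 (mt-Nd3) differed at 1 base of 345, near its start. Gm29216 (the last part of mt-Co1) differed at 6 of 492 bases, all near its start, and was identical over a run of 479 bases. A copy of mt-Co1 on chromosome 2, Gm13340, differed at 37 of 1545 bases. The windows below set each mitochondrial stretch beside its copies, with differing bases in capitals.
mt-Nd3, chrM:9459-9501: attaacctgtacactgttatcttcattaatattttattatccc
Gm28438, chr1:24613077-24613119, minus strand: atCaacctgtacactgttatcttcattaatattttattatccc
mt-Co1, chrM:6381-6480: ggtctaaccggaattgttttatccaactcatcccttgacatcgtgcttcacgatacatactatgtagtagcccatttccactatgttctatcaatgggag
Gm29216, chr1:24616098-24616197, minus strand: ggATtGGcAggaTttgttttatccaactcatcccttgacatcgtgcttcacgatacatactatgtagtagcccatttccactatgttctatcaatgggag
Gm13340, chr2:22588495-22588594, minus strand: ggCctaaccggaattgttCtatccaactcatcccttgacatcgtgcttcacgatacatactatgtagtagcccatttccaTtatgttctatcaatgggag
Reads that fall in an identical stretch cannot be assigned to the mitochondrial gene or to its chromosome 1 copy from their sequence. How the authors' counting placed them is not given in the sources used here, so the 7 members with such a copy are uncertain as single rows and are also given summed with it.

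Mitochondrial messages were among the most abundant RNAs of the wild-type retina. The 16 members took 13.2% to 14.8% of the FPKM sum of a wild-type library and, because they are short, 4.03% to 4.53% of its reads. The top of the order was shared by mt-Cytb, the cytochrome b of complex III, at 8676 ± 477 FPKM (SD, n = 5), and mt-Co1, the catalytic subunit of cytochrome c oxidase (complex IV), at 8530 ± 284 FPKM (SD, n = 5), whose ranges overlapped. Below them, with no overlap between neighbours, came mt-Nd1 at 4807 ± 388 FPKM (SD, n = 5) and mt-Co2 at 3588 ± 137 FPKM (SD, n = 5). Next were mt-Nd4, mt-Nd5, mt-Nd2 and mt-Co3, with means of 2152, 2104, 2076 and 1639 FPKM, each overlapping its neighbour. The lower part of the order was mt-Atp6 (899 FPKM), then mt-Nd6, mt-Nd4l, mt-Rnr2 and mt-Tp, which overlapped in turn at means of 548, 488, 447 and 378 FPKM, then mt-Nd3 and mt-Rnr1 at 263 and 247 FPKM, and last mt-Atp8 at 162 FPKM. Both ribosomal RNAs, which are the main transcripts of mitochondria in total RNA, stood in the lower part of the order in these libraries, which were made with an mRNA kit: mt-Rnr2 overlapped mt-Nd4l and lay above mt-Nd3 and mt-Atp8, and mt-Rnr1 overlapped mt-Nd3 and lay above mt-Atp8. The order of several members depends on their copies. With the copies added, the wild-type means were 8821 FPKM for mt-Co1, 4310 for mt-Co2, 3328 for mt-Co3, 2807 for mt-Atp6, 2378 for mt-Nd4, 995 for mt-Nd4l and 653 for mt-Nd3. The sums of mt-Co3 and mt-Atp6 then exceeded that of mt-Nd4 and the means of mt-Nd5 and mt-Nd2, and mt-Co1 exceeded mt-Cytb by mean.

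**Figure D1:**
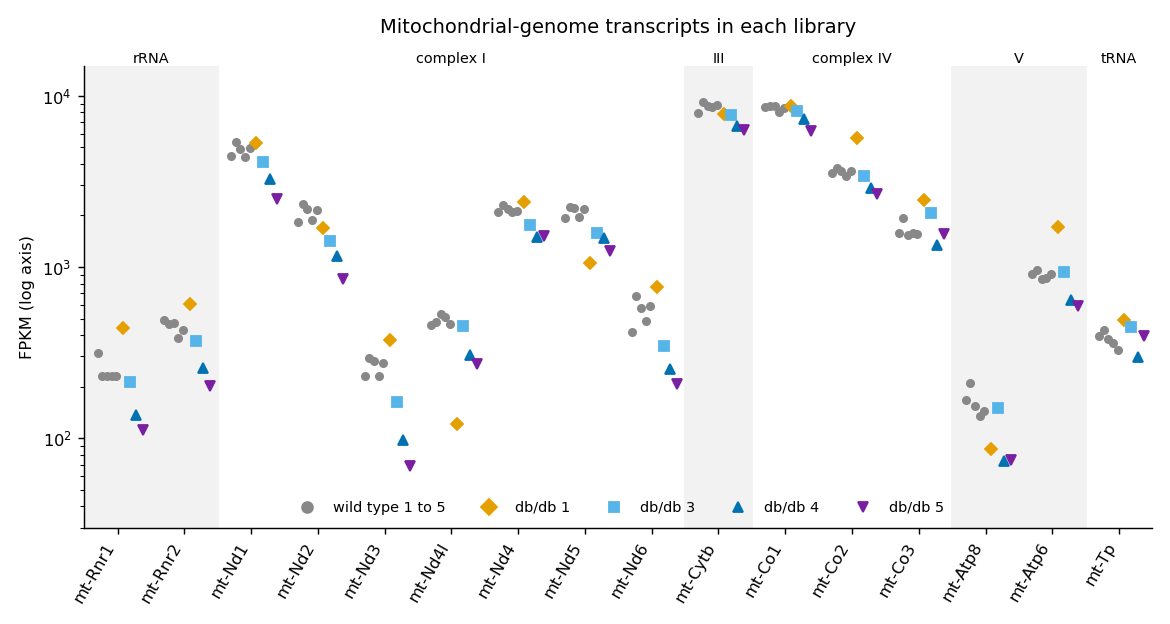
FPKM of the 16 mitochondrial-genome transcripts (log axis) in each library, ordered by class and respiratory complex. Grey circles are wild type 1 to 5 and coloured symbols the 4 db/db libraries; mt-Cytb and mt-Co1 stand highest, and db/db 4 and 5 lie below the wild-type points for most members.

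The design sets db/db against wild-type retina, and the question here was whether these RNAs differ. With all 9 libraries none of the 16 members passed limma at an adjusted p under 0.05, where 0.5% of all tested genes did (5 of 16 had an unadjusted p under 0.05, against 19.3% of all genes, and limma-voom on recovered reads called 1). Estimates were below 0 for 14 of 16 members, against 49.3% of all genes, with a median log2 change of -0.36 where the median of all genes was 0.0035. Without db/db 1, 9 of 16 members were lower past the threshold, against 5.84% of all genes, and the median was -0.55. All 16 estimates were then below 0, against 54.3% of all genes, and 13 had an unadjusted p under 0.05, against 30.1%. The 9 members past the adjusted threshold were the 7 complex I subunit messages and both ribosomal RNAs. On the FPKM scale the 4 db/db libraries did not behave alike: the median of the members relative to the wild-type mean was 0.26 in db/db 1, -0.19 in db/db 3, -0.54 in db/db 4 and -0.81 in db/db 5, while wild-type medians lay between -0.09 and 0.10. The place of db/db 1 depends on scaling, as its FPKM sum was 311179, against 252832 to 268139 in the other libraries. As a share of that sum the members took 12.8%, 12.6%, 10.9% and 9.52% in db/db 1, 3, 4 and 5. In wild type they took 13.2% to 14.8%. As a share of reads they took 4.34%, 3.80%, 3.23% and 2.86% in db/db 1, 3, 4 and 5, against 4.03% to 4.53% in wild type. By that measure db/db 1 lay within the wild-type range. In whole retina, fewer mitochondria-rich cells, fewer mitochondrial genomes per cell and less RNA per genome cannot be told apart.

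**Figure D2:**
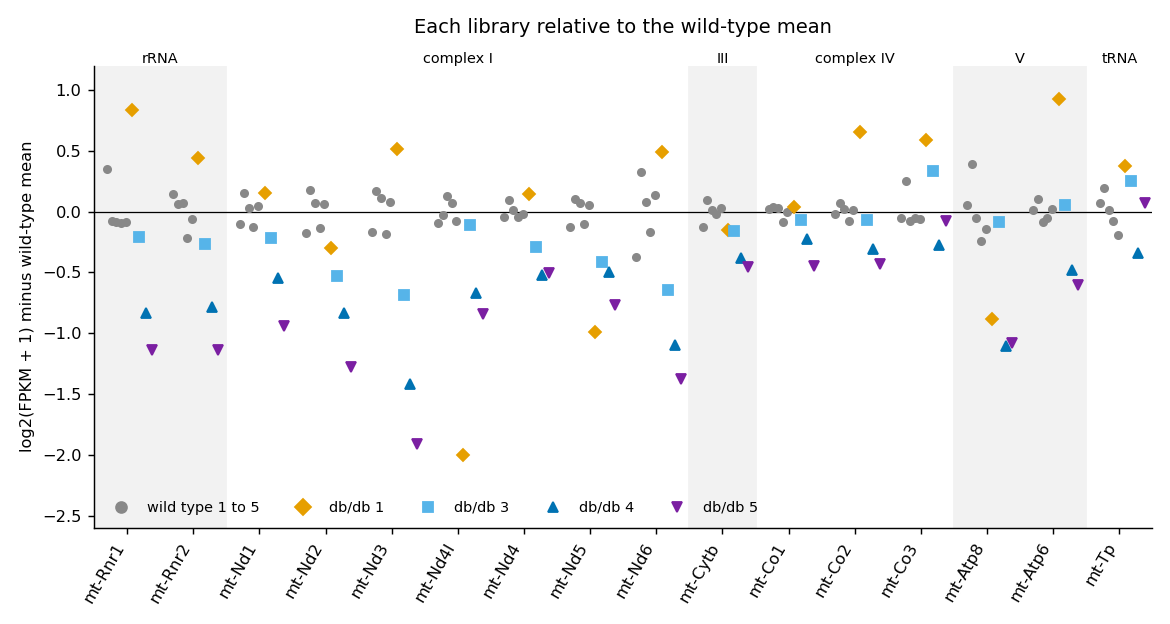
log2(FPKM + 1) of each member in each library minus the wild-type mean of that member. Wild-type points (grey) stay between -0.38 and 0.39; db/db 5 (purple) reaches -1.91 at mt-Nd3, and db/db 1 (orange) lies above 0 for 11 members but is lowest of all libraries for mt-Nd4l and mt-Nd5 (-0.99).

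As a share of the members' own reads, complex I and complex IV messages shifted in all 4 db/db libraries, db/db 1 included. Complex I messages made up 31.8% to 34.0% of the member reads in wild type and 29.0%, 29.2%, 29.0% and 27.3% in db/db 1, 3, 4 and 5, so the groups did not overlap. Complex IV messages made up 38.9% to 41.6% in wild type and 44.4%, 43.6%, 44.3% and 44.4% in db/db, again without overlap. With the chromosome 1 copies added, complex I took 30.2% to 32.4% in wild type and 25.1% to 27.5% in db/db, and complex IV 39.9% to 42.9% and 45.1% to 47.4%. These shares do not depend on how libraries are scaled against each other. Being sums over chosen members they were not tested. They can still move with GC content, in relation to which db/db libraries differed from wild type (below). The median GC content was 35.7% for complex I messages and 38.9% for complex IV messages. No GC-corrected shares were computed, so the part of GC content in the shift was not tested.

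Complex I, the NADH dehydrogenase that feeds electrons from NADH into the chain, has 7 subunits encoded here, all of them in its membrane arm. All 7 had estimates below 0, with a median of -0.67 (range -0.91 to -0.29). The smallest adjusted p was that of mt-Nd5 (ENSMUSG00000064367, chromosome M, 11742 to 13565), which encodes a proton-pumping subunit at the far end of the arm. Its level was 1926, 2253, 2199, 1956 and 2185 FPKM in wild type 1 to 5 and 1057, 1572, 1486 and 1231 FPKM in db/db 1, 3, 4 and 5. All 4 db/db values lay below the whole wild-type range, with db/db 1 lowest. The means were 2104 ± 151 (SD, n = 5) and 1337 ± 236 FPKM (SD, n = 4). The limma estimate was -0.67 on the log2 scale (SE 0.13, adjusted p = 0.0563, range 0.0139 to 0.649 over 27 alternatives), and without db/db 1 it was lower past the threshold (-0.56, adjusted p = 0.0158).

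A second complex I message, mt-Nd2 (chromosome M, 3914 to 4951), also separated the groups. It stood at 1830, 2343, 2172, 1881 and 2152 FPKM in wild type and at 1681, 1427, 1156 and 854 FPKM in db/db 1, 3, 4 and 5, so every db/db library was below every wild-type one and db/db 5 was at less than any other. The log2 change was -0.74 (SE 0.18, adjusted p = 0.0822), and -0.88 without db/db 1 (adjusted p = 0.0158). No nuclear copy passing the identity rule at more than 1 FPKM covers mt-Nd2, and the copy that partly covers mt-Nd5, Gm4076, had a mean of 1.08 FPKM. With all 9 libraries, mt-Nd2 passed the threshold under quantile normalization and array weights, and mt-Nd5 under limma without an intensity trend, array weights and limma-voom; under array weights the other 5 complex I messages and mt-Rnr2 passed too.

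For mt-Nd4l, a small subunit next to the proton channel, the 9 values were 456, 477, 534, 513 and 463 FPKM in wild type and 121, 450, 306 and 271 FPKM in db/db 1, 3, 4 and 5. The db/db values were again all lower, but db/db 3 fell just short of the wild-type range and db/db 1 was far below the other 3. The log2 change was -0.91 (SE 0.30, adjusted p = 0.156) with all libraries and -0.54 (adjusted p = 0.0434) without db/db 1. Its partner on the same message, mt-Nd4, did not share that pattern: it was at 2081 to 2295 FPKM in wild type and at 2382, 1756, 1496 and 1514 FPKM in db/db 1, 3, 4 and 5. There db/db 1 was the highest of all 9 libraries and the other 3 were below the wild-type range, giving -0.29 with all libraries (adjusted p = 0.276) and -0.44 without db/db 1 (adjusted p = 0.0160).

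The remaining complex I messages were split by db/db 1 in the same way. mt-Nd1, which lies near the quinone-binding site, was at 4385 to 5338 FPKM in wild type, at 5322 FPKM in db/db 1, and at 4124, 3277 and 2495 FPKM in db/db 3, 4 and 5. mt-Nd3 was at 230 to 294 FPKM in wild type, at 374 FPKM in db/db 1, and at 162, 97.4 and 68.8 FPKM in db/db 3, 4 and 5, the widest range of the 16 members within the db/db group on the log2 scale. mt-Nd6, the only protein message transcribed from the opposite template, was at 417 to 678 FPKM in wild type, at 759 FPKM in db/db 1, and at 344, 253 and 208 FPKM in db/db 3, 4 and 5. In each of these, 3 db/db libraries lay below the wild-type range and db/db 1 did not. Without db/db 1 the log2 changes were -0.57 (mt-Nd1, adjusted p = 0.0455), -1.34 (mt-Nd3, adjusted p = 0.0146) and -1.04 (mt-Nd6, adjusted p = 0.0159). With all libraries the adjusted p of these members ran from 0.273 to 0.311.

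Because mt-Nd6 comes from the opposite strand, its ratio to its neighbour mt-Cytb was examined within each library. The strand setting of the counting was not given, so the mt-Nd6 row may also hold reads from the other strand. The ratio therefore need not compare the strands cleanly. The ratio of FPKM was 5.24% to 7.32% in wild type, 9.72% in db/db 1, and 4.45%, 3.80% and 3.30% for db/db 3, 4 and 5. The db/db libraries thus lay on both sides of the wild-type range. The mean log2 ratio differed by -0.37 (exact two-sided permutation p = 0.278 over 126 regroupings, 0.556 adjusted over the 2 ratios tested, where the smallest p possible is 0.00794). Without db/db 1 it differed by -0.71 (adjusted exact permutation p = 0.0357). The unadjusted p behind that value is the smallest the test can give without db/db 1, so it is not a graded result. The other ratio, mt-Rnr2 over mt-Nd1, which spans the boundary between the ribosomal RNAs and the messages, was 8.60% to 11.0% in wild type and 11.3%, 8.97%, 7.89% and 8.10% in db/db 1, 3, 4 and 5 (difference -0.05 on the log2 scale, adjusted exact permutation p = 0.683, and -0.16 without db/db 1, adjusted exact permutation p = 0.143).

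Complex III passes electrons from ubiquinol to cytochrome c, and mt-Cytb is its single subunit encoded here. It stood at 7951, 9254, 8761, 8561 and 8851 FPKM in wild type and at 7812, 7743, 6655 and 6303 FPKM in db/db 1, 3, 4 and 5. The groups did not overlap, although db/db 1 and wild type 1 were close. The log2 change was -0.29 (SE 0.10, adjusted p = 0.183), and -0.33 without db/db 1 (adjusted p = 0.0775). With mt-Nd2, mt-Nd4l and mt-Nd5, this made 4 of 16 members whose db/db values all lay below wild type, against 6.38% of all tested genes. Without db/db 1 there were 10 of 16, against 11.5%.

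Complex IV, cytochrome c oxidase, transfers electrons to oxygen, and its 3 catalytic-core subunits are encoded here. None of the 3 passed with all libraries or without db/db 1. mt-Co1 was at 8047 to 8742 FPKM in wild type and at 8741, 8145, 7293 and 6267 FPKM in db/db 1, 3, 4 and 5, a log2 change of -0.17 (SE 0.11, 95% interval -0.43 to 0.08, adjusted p = 0.417), and -0.25 without db/db 1 (adjusted p = 0.172). Only db/db 4 and 5 lay below the wild-type range. mt-Co2, which carries the copper centre that takes electrons from cytochrome c, was at 3397 to 3768 FPKM in wild type and at 5654, 3413, 2891 and 2653 FPKM in db/db 1, 3, 4 and 5 (log2 change -0.04, 95% interval -0.48 to 0.40, adjusted p = 0.924), and the estimate was -0.27 without db/db 1 (adjusted p = 0.0968). mt-Co3 was at 1546 to 1945 FPKM in wild type and at 2457, 2054, 1346 and 1550 FPKM in db/db 1, 3, 4 and 5, with an estimate of 0.14 (95% interval -0.24 to 0.53, adjusted p = 0.667) that became -0.0073 without db/db 1 (adjusted p = 0.978). For mt-Co2 and mt-Co3, db/db 1 was the highest of the 9 libraries. The signs of mt-Co1 and mt-Co2 turned with quantile normalization and that of mt-Co3 without db/db 1.

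The ATP synthase (complex V) has a pair of membrane subunits encoded on 1 message with overlapping frames. mt-Atp8 was at 166, 210, 154, 135 and 145 FPKM in wild type and at 86.4, 151, 73.6 and 74.9 FPKM in db/db 1, 3, 4 and 5, so db/db 3 was within the wild-type range and the other 3 were below it. Its log2 change was -0.79 (SE 0.21, adjusted p = 0.0994; -0.76 and 0.0657 without db/db 1). mt-Atp6, the proton-channel subunit, was at 848 to 965 FPKM in wild type and at 1704, 930, 644 and 590 FPKM in db/db 1, 3, 4 and 5 (log2 change -0.03, adjusted p = 0.958). In db/db 1 the members of the pair thus went apart, mt-Atp8 below the wild-type range and mt-Atp6 at 1704 FPKM against a wild-type maximum of 965 FPKM, as mt-Nd4l and mt-Nd4 did. The sign of mt-Atp6 turned with GC correction and without db/db 4 or db/db 5.

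Both ribosomal RNAs build the mitochondrial ribosome. mt-Rnr1, of the small subunit, was at 313 FPKM in wild type 1 and 229 to 232 FPKM in the other wild-type libraries, and at 440, 212, 137 and 111 FPKM in db/db 1, 3, 4 and 5. mt-Rnr2, of the large subunit, was at 383 to 491 FPKM in wild type and at 604, 370, 258 and 202 FPKM in db/db 1, 3, 4 and 5. For both, db/db 1 was the highest library and the other 3 db/db libraries were the lowest. The log2 changes were -0.34 and -0.44 with all libraries (adjusted p = 0.607 and 0.394) and -0.73 for each without db/db 1 (adjusted p = 0.0408 and 0.0303). The transfer RNA mt-Tp was at 329 to 429 FPKM in wild type and at 488, 448, 297 and 394 FPKM in db/db 1, 3, 4 and 5, with no difference beyond the spread (log2 change 0.09, 95% interval -0.23 to 0.41, adjusted p = 0.755; -0.0079 and 0.975 without db/db 1). Its row rested on 818 to 1507 reads per library, and mature transfer RNA and longer precursors that contain it cannot be told apart.

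**Figure D3:**
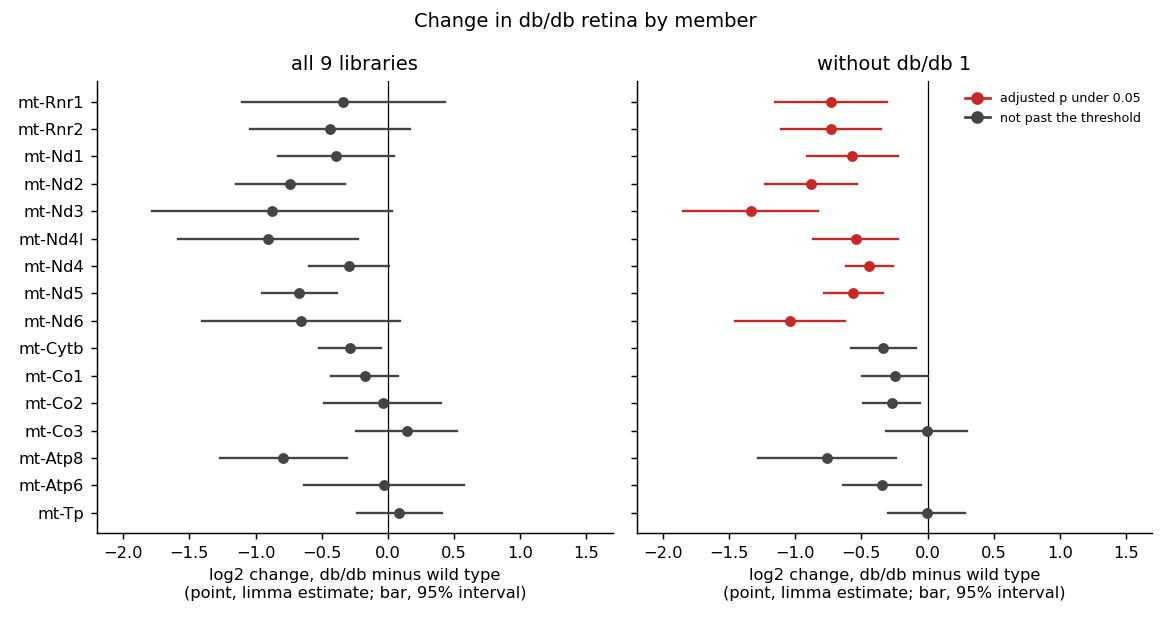
limma log2 change of each member, db/db minus wild type, with its 95% interval, for all 9 libraries (left) and without db/db 1 (right). Red marks an adjusted p under 0.05: none of 16 on the left, and on the right the 7 complex I messages and both ribosomal RNAs.

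The chromosome 1 copies carried a large part of the reads for some members. In wild type Gm10925 held 66.1% to 69.8% of the reads of the pair it forms with mt-Atp6, Gm28438 held 58.1% to 61.1% with mt-Nd3, Gm10222 held 43.5% to 55.6% with mt-Nd4l, and Gm28437 held 41.05% to 54.1% with mt-Co3. The shares were lower for Gm28661 with mt-Co2 (14.9% to 17.6%), Gm28439 with mt-Nd4 (8.37% to 10.5%) and Gm29216 with mt-Co1 (2.18% to 4.28%). By contrast Gm13340, whose sequence differs at 37 bases, had a mean of 9.45 FPKM, and Gm13341, Gm4076 and Gm13339 had means of 1.64, 1.08 and 0.841 FPKM. Members and chromosome 1 copies together took 4.44% to 4.96% of reads in wild type and 4.91%, 4.17%, 3.56% and 3.21% in db/db 1, 3, 4 and 5, where members alone took 4.34%, 3.80%, 3.23% and 2.86%.

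The rows of a pair did not always give the same call. Gm28439 was lower in db/db past the threshold with all 9 libraries, with means of 355 ± 48.8 (SD, n = 5) and 190 ± 35.6 FPKM (SD, n = 4) and a limma estimate of -0.91 (adjusted p = 0.0419; -0.96 and 0.0133 without db/db 1), whereas mt-Nd4, which holds the same 876 bases, had -0.29. Its values were 306, 403, 374, 300 and 392 FPKM in wild type and 208, 225, 183 and 143 FPKM in db/db 1, 3, 4 and 5, without overlap and with db/db 1 among the low ones. The estimate was below 0 in all 25 alternatives but passed in 13 of them (adjusted p 0.0112 to 0.649), and leaving out any library other than db/db 1 lost the call (adjusted p 0.0678 to 0.144). Summed, the pair had -0.34 (adjusted p = 0.211), and -0.48 without db/db 1 (adjusted p = 0.0137). Gm29216 had an estimate of 0.58 (adjusted p = 0.262) beside -0.17 for mt-Co1, and the sum had -0.14. For mt-Nd4l and mt-Nd3 the sums had -0.93 and -0.83 (adjusted p = 0.113 and 0.292), near the values of the single rows. For mt-Atp6 the sum had -0.21, against -0.03 for the single row, and without db/db 1 it passed (-0.48, adjusted p = 0.0417) where the single row did not (-0.35, adjusted p = 0.116). For mt-Co2 and mt-Co3 the sums had -0.02 and 0.11. With all pairs summed, 0 members passed with all 9 libraries (limma) and 10 without db/db 1.

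**Figure D4:**
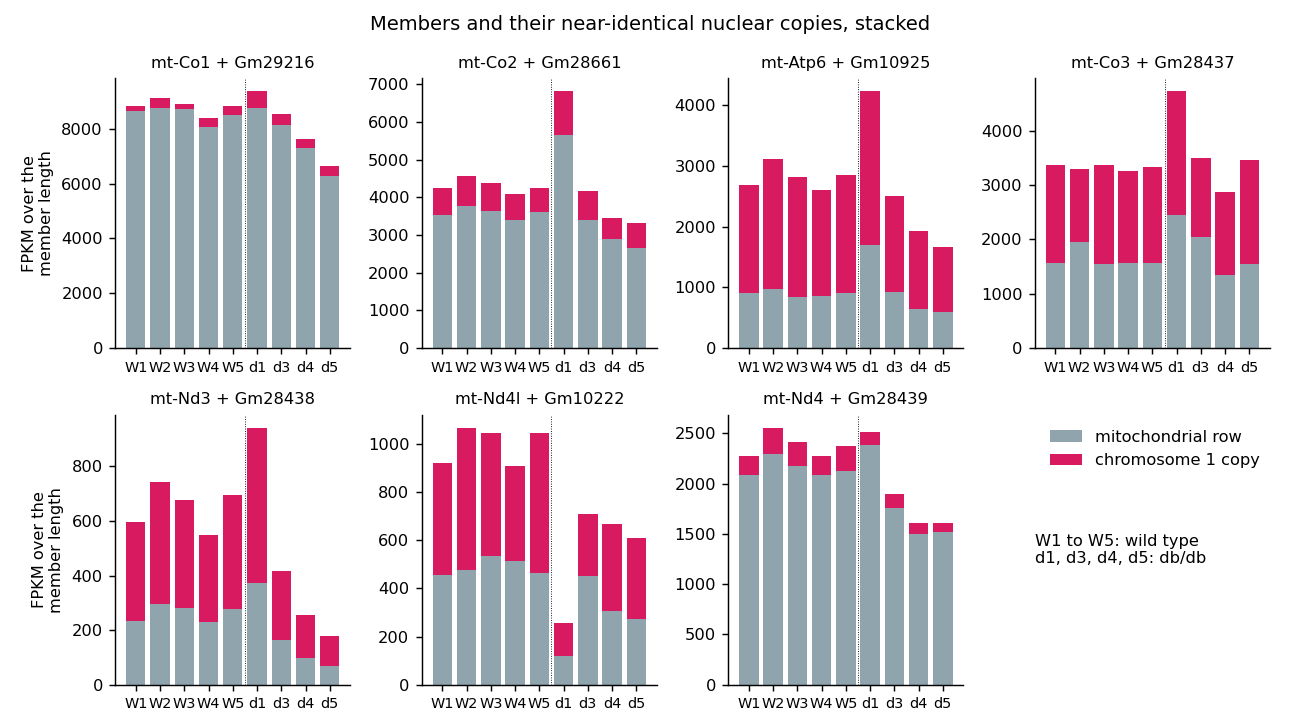
FPKM of each member with a chromosome 1 copy (grey) and, stacked on it, the copy's reads over the member's length (pink), in each library. Sums for mt-Co3 stay between 3268 and 3374 FPKM in wild type although the single rows vary more, and db/db 1 is the highest library for 5 of the 7 pairs and the lowest for mt-Nd4l.

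The members are AT-rich, with a GC content of 31.9% to 44.8% (median 36.5%) against a median of 49.8% over all tested genes. Across the 16 members the log2 change rose with GC content (Pearson r = 0.53 with all libraries and 0.76 without db/db 1, a description over members that share libraries and a genome), while the same r was 0.08 with length and 0.04 with map position. The db/db libraries differed from wild type in relation to GC over all genes: the Spearman correlation of a gene's change with its GC content was 0.21, 0.24, 0.39 and 0.58 in db/db 1, 3, 4 and 5, and -0.21 to 0.18 in wild type. After GC correction the median of the members was -0.19 with all libraries and -0.37 without db/db 1, and in the latter mt-Nd2, mt-Nd3, mt-Nd5 and mt-Nd6 were lower past the threshold (limma adjusted p = 0.0239, 0.0227, 0.0300 and 0.0277), while mt-Nd1, mt-Nd4, mt-Nd4l and both ribosomal RNAs were not (0.0526 to 0.0908). GC correction with all 9 libraries left 0 members past the threshold. The correction was made in bins of GC content, and log2 changes of members in the same bin moved alike. With all libraries mt-Atp8, mt-Nd2 and mt-Co3 (GC content 31.9%, 35.7% and 38.9%) went from -0.790, -0.736 and 0.142 to -0.615, -0.562 and 0.316. The correction thus did not remove differences with GC content within a bin, and their part in the calls that remained was not tested.

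Nuclear genes that serve this genome were examined as 13 lists holding 213 tested genes. With all libraries 1 of the 213 rose and 0 fell, near the 0.5% of all genes. It was Top1mt, the mitochondrial topoisomerase that relieves twisting during replication and transcription, whose mean went from 8.89 to 12.3 FPKM (a log2 difference of 0.42, adjusted p = 0.0419, and 0.0127 without db/db 1). Top1mt passed in 13 of 27 alternatives (limma adjusted p 0.0125 to 0.650). Leaving out any library other than db/db 1 lost the call, as did GC correction with all libraries. Without db/db 1, 5 rose and 9 fell, against 4.72% and 5.84% of all genes. Among 12 genes of mitochondrial transcription none passed with all libraries. Polrmt, the mitochondrial RNA polymerase, had 0.34 (adjusted p = 0.0637) and was higher without db/db 1 (0.31, adjusted p = 0.0210). Mterf1b, of a family of termination factors, had -0.29 (adjusted p = 0.217) and was lower without db/db 1 (-0.42, adjusted p = 0.0129). Also lower without db/db 1 were Mterf1a (-0.36, limma adjusted p = 0.0211) and, of the replication list that holds Top1mt, Rrm2b (-0.29, limma adjusted p = 0.0211). With all libraries they had -0.17 and -0.37 (limma adjusted p = 0.571 and 0.0735). None of 20 genes of RNA processing and stability passed in either fit, with Tbrg4, an RNA-binding protein of the FASTK family, at 0.21 (adjusted p = 0.130; 0.0668 without db/db 1) and Pde12, a phosphodiesterase that trims poly(A), at -0.18 (adjusted p = 0.173; 0.0706 without db/db 1).

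The other lists were those of translation and of partner subunits. With all libraries 0 of 11 translation factors, 0 of 17 transfer RNA synthetases, 0 of 77 ribosomal proteins, 0 of 10 biogenesis regulators and 0 of 13 proteins that follow mitochondrial mass passed. Without db/db 1 the synthetase gene Aars2 was higher (0.27, adjusted p = 0.0235), as was the transcription factor gene Nrf1 (0.21, adjusted p = 0.0463), and 2 ribosomal protein genes, Mrpl40 and Mrpl48, were lower (-0.31 and -0.20, adjusted p = 0.0230 and 0.0293). Nuclear subunits of the complexes that mitochondrial messages complete gave 0 of 7 for the complex I core, 0 of 9 for complex III, 0 of 10 for complex IV and 0 of 15 for the ATP synthase with all libraries. Their medians were 0.26, 0.26, 0.16 and 0.15, and 0.11, 0.03, -0.05 and -0.12 without db/db 1. Without db/db 1, 4 of these subunit genes were lower past the threshold and 0 higher (limma): Uqcrb of complex III (-0.30, adjusted p = 0.0324), Cox6c and Cox7c of complex IV (-0.33 and -0.42, adjusted p = 0.0469 and 0.0144) and Atp5l of the ATP synthase (-0.20, adjusted p = 0.0408), which are named after their values were seen. Complex II, which has no mitochondrially encoded subunit, had 0 of 4, and its flavoprotein gene Sdha was higher without db/db 1 (0.23, adjusted p = 0.0212). Over the 45 nuclear complex genes the median log2 level against the wild-type mean was 0.83 for db/db 1, whereas the other 3 libraries had 0.04, -0.17 and 0.07. On the FPKM scale, where db/db 1 had the largest sum of all libraries, both genomes' transcripts in db/db 1 were thus above the wild-type mean at the median. In db/db 5 the members stood at -0.81 and the nuclear genes at 0.07. The median GC content was 36.5% for the members and 50.2% for the nuclear complex genes. Of all libraries db/db 5 had the highest Spearman correlation of change with GC content (0.58). The part of GC content in this contrast was not tested.

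**Figure D5:**
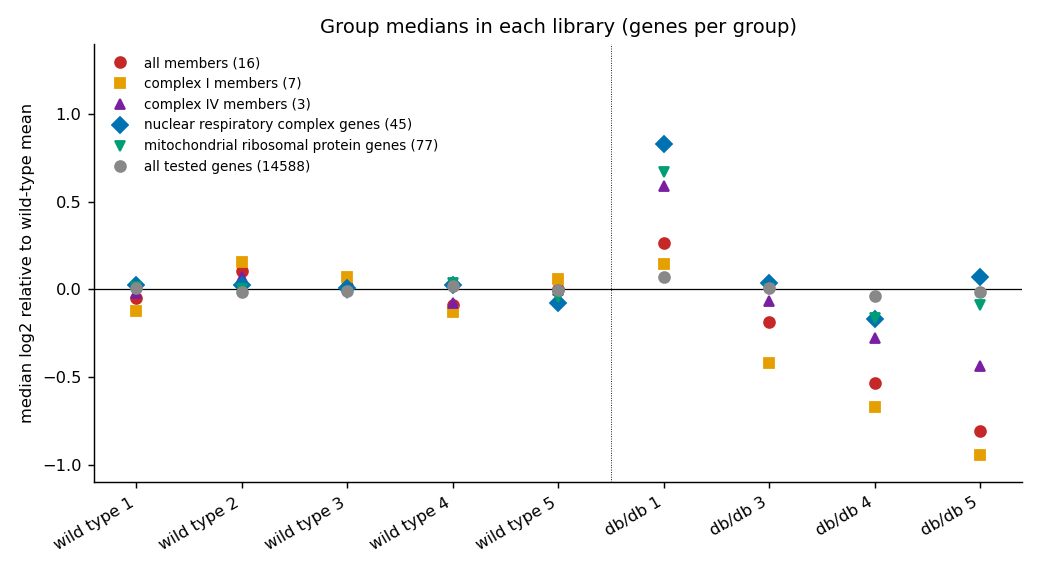
Median log2 level relative to the wild-type mean in each library, for the members, for their complex I and complex IV messages, and for nuclear gene lists (number of genes in brackets). In db/db 1 nuclear respiratory complex genes reach 0.83, and in db/db 3 to 5 the members fall away from the nuclear lists. Members and nuclear lists also differ in GC content.

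Cell type markers gave the following values beside these results. Rod genes, the main retinal marker list, were present in all libraries, with summed levels of 11026 to 11848 FPKM in wild type and 11295 to 12971 FPKM in db/db, and 0 of 8 passed. Muller glia genes summed to 767 to 820 FPKM in wild type and 851 to 898 FPKM in db/db (0 of 5 passed), and pericyte genes to 22.98 to 24.5 FPKM and 19.1 to 21.8 FPKM (0 of 3 tested passed), without overlap in either. Pigment epithelium genes ranged from 110 to 183 FPKM and 69.3 to 377 FPKM, lens genes from 1.23 to 75.0 FPKM and 1.38 to 137 FPKM, and erythrocyte genes from 14.6 to 26.1 FPKM and 21.7 to 72.6 FPKM, the highest erythrocyte and pigment epithelium values being in db/db 1. No marker of the 13 lists was at 0 in all libraries and none passed with all 9. In the fit without db/db 1, which gave the members' calls, 10 markers passed, and they are named after their values were seen. They were 1 of 8 tested rod genes, 2 of 6 amacrine, 3 of 5 Muller glia, 1 of 3 microglia and 3 of 3 pericyte genes. No gene of the other lists passed there, where 10.6% of all tested genes did. Lower were Sag of rods (-0.30, adjusted p = 0.0429), Gad2 and Tfap2b of amacrine cells (-0.19 and -0.25), Slc1a3 and Rlbp1 of Muller glia (-0.25 and -0.20), C1qa of microglia (-0.34) and Rgs5 and Kcnj8 of pericytes (-0.36 and -0.47), and higher were Aqp4 of Muller glia (0.31) and Pdgfrb of pericytes (0.28). All 3 pericyte genes tested and 3 of 5 Muller glia genes thus passed there, in mixed directions. The part of these cells in the members' levels was not tested.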

How the data were processed

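Retinal RNA from 5 wild-type and 4 db/db samples was sequenced from libraries made with an mRNA kit, per the labels' protocols. The authors deposited 1 table of FPKM values on genome build mm10, per the submitters' processing notes. Which aligner and counter were used, the strand setting and the treatment of reads with several matches were not given in the sources used here. Symbols, lengths and sequences came from GENCODE M21 on the same assembly (34499 of 35397 identifiers). The members and lists were chosen with earlier results of these data known.

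FPKM times exon length moved in steps that gave the depth, with 98.9% to 99.1% of low values whole within 0.1 read. Values were tested as log2(FPKM + 1), which understates changes of low genes, where the mean over libraries reached 1 FPKM. limma 3.58.1 in R 4.3.3 (eBayes with a trend, no covariate) compared db/db with wild type, with Benjamini-Hochberg adjustment over 14588 genes and a threshold of 0.05. Shares of reads used FPKM times length. Nuclear copies were found with BLAST 2.17.0 against the mitochondrial genes. The steps were tested on simulated data. Every member was named, and nuclear lists were to give their called genes or, failing any, the 2 genes of lowest p (several are given by count only). Alternatives were other pseudocounts, filters, scalings, eBayes settings, GC correction in 20 bins, a replicate block and each library left out. Summing members with copies, and scaling on nuclear genes without db/db 1, were chosen after seeing the data. Giving the fit without db/db 1 beside the main fit throughout rested on the number of genes it called. Plots used matplotlib 3.10.9 (Python 3.11.15).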

Additional observations from a re-analysis of the deposited data

Results flagged for a closer look

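Among 68 sets of values for members, copies, their shares and ratios within a group, 7 had a library far from the rest by Dixon's ratio, where chance gives about 1 in 20. mt-Rnr1 stood at 313 FPKM in wild type 1 against a group median of 232 FPKM. mt-Atp8 stood at 151 FPKM in db/db 3 against 80.6 FPKM. Wild type 2 was apart for mt-Co3, at 1945 FPKM against 1570 FPKM, for its copy Gm28437, at 1356 FPKM against 1769 FPKM, and for the share of the pair's reads in the copy, at 41.05% against 53.1%, while the sum of the pair was 3299 FPKM there and 3268 to 3374 FPKM over wild type. The share of the mt-Co2 pair in its copy was 14.9% in wild type 5 against 17.03%. The share of the mt-Nd4l pair in its copy was 36.5% in db/db 3 against 53.6%.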

How the results depend on the processing

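With all 9 libraries 34 of all tested genes were higher and 39 lower. The higher and lower counts were 7 and 2 without a filter, 17 and 13 with a filter at a mean of 5 FPKM, 11 and 23 with equal sums over nuclear genes, 21 and 15 with equal sums over all genes, 550 and 656 with array weights, 5 and 1 with GC correction, 374 and 341 with GC correction without db/db 1, and 612 and 873 with equal nuclear sums without db/db 1; limma-voom gave 64 lower. They ran from 3 to 688 and from 1 to 852 when single libraries were left out. Members lower past the threshold numbered 1 without an intensity trend, with quantile normalization and with limma-voom, 8 with array weights, 4 with GC correction without db/db 1, 9 with equal nuclear sums without db/db 1, 10 with copies summed and db/db 1 left out, and 0 to 9 with single libraries left out. Genes called in the nuclear lists numbered 0 without a filter, with either equal-sum scaling and with GC correction, 8 with array weights and with GC correction without db/db 1, 15 with equal nuclear sums without db/db 1, and 0 to 14 with single libraries left out. The ratio of mt-Nd6 to mt-Cytb ran from -0.71 to -0.19 and that of mt-Rnr2 to mt-Nd1 from -0.16 to 0.015 with single libraries left out, the latter turning sign without wild type 1 (0.014), db/db 4 (0.015) and db/db 5 (0.0018).

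Replicate numbers gave no sign of pairing: same-numbered libraries' deviations had correlations of 0.04, 0.05, -0.18 and 0.13. Those of differently numbered libraries ran from -0.21 to 0.18. So few values cannot show that pairing was absent. With the replicate block 2 genes were higher and 0 lower, 0 members and 0 list genes passed (limma), and with GC correction and the block 0 were higher and 0 lower, with 0 list genes.

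Signs of single estimates turned as follows. mt-Co1 had 0.045 and mt-Co2 0.21 with quantile normalization. mt-Co2 and mt-Atp6 had 0.13 and 0.15 with GC correction, and 0.15 and 0.17 with the replicate block added. mt-Co3 and mt-Tp had -0.0014 and -0.017 with array weights, -0.019 each with equal nuclear sums without db/db 1, and -0.025 and -0.0079 with copies summed without db/db 1. Tomm70a had 0.035 with GC correction, 0.038 with the replicate block added and 0.016 with GC correction without db/db 1, where Atp5d had -0.0011 and Gm4076 0.11. Gm28437, Gm28661 and Gm13341 had -0.056, -0.13 and -0.016 with array weights and -0.062, -0.15 and -0.036 with equal nuclear sums without db/db 1. Gm28437 also had -0.0066 with the replicate block, Gm28661 -0.00098 with quantile normalization and Gm13341 -0.014 with equal nuclear sums. With single libraries left out, mt-Co2 ran from -0.27 to 0.092, mt-Atp6 from -0.35 to 0.16, mt-Co3 from -0.0073 to 0.28, mt-Tp from -0.0079 to 0.23, Gm28437 from -0.050 to 0.16, Gm28661 from -0.14 to 0.22 and Gm13341 from -0.079 to 0.098. Signs turned there without db/db 4 or 5 for mt-Co2 and mt-Atp6, and without db/db 1 for the others, with wild type 2 also doing so for Gm28437 and wild type 5 for Gm13341. The cause of these changes was not tested.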
